A study of Mus musculus with 2 samples.

Results

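The beta-type globin genes of the mouse lie in 1 cluster on chromosome 7, and the Gata1 peaks around them were examined here. The region was set from the listed genes Hbb-bt, Hbb-bs, Hbb-bh2, Hbb-bh1 and Hbb-y, extended by 100 kb on each side, to chr7:103712524-103953207 of mm10 (GRCm38), a stretch of 240.7 kb. It held 6 of the 4135 Gata1 peaks called in the series, taken by their midpoints. The rule used gene positions alone and no measured value, but the genes were chosen with earlier results of these data known.

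The cells were sorted from embryoid bodies, aggregates in which mouse embryonic stem cells had differentiated towards blood for 5 days, and were positive for both a Runx1-ires-GFP and a Gata1-mCherry reporter. The series calls this population primitive erythroid, the red cells that an embryo makes first. Gata1-bound DNA was recovered with a rabbit antibody to Gata1 and sequenced (chromatin immunoprecipitation sequencing, ChIP-seq) in 1 library, and 1 library of input chromatin from the same kind of cells is listed beside it. The antibody field of the control names a rabbit IgG, while its description states that material was too scarce for an IgG precipitation; no file of the control was analysed here. Cells from several sorts were pooled, so the 1 ChIP library gives no measure of how binding varies between cultures, and the strain of the stem cells is not given in the sources used here. Every peak is an interval of 400 bp with no score, height or p-value, so each site is reported as called or not called, and the depth behind it is unknown. No expression values were available, so the labelled cell type was not checked against markers.

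Gata1 is a zinc finger transcription factor that binds GATA sequences and directs red cell development. The mouse beta-type globin genes run from embryonic to adult along the cluster. Hbb-y and Hbb-bh1, which encode the globins of primitive red cells, lie nearest the locus control region, a group of DNase I hypersensitive sites upstream of Hbb-y that enhances every gene of the cluster, and the adult genes Hbb-bs and Hbb-bt lie farthest from it. The whole cluster sits inside an array of olfactory receptor genes, which serve smell in the nose.

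The 3 promoters below are shown because they separate the embryonic end of the cluster from the adult end and because none of them was overlapped by a Gata1 peak. Each is the stretch of 250 bases before the annotated start of the gene, from RefSeq (GRCm38.p6), 5′ to 3′ on the minus strand, on which the genes are transcribed: Hbb-y at chr7:103853208-103853457, Hbb-bs at chr7:103827929-103828178 and Hbb-bt at chr7:103813924-103814173. Capitals mark matches on either strand to 4 GATA words, to the CCAAT box, to the shorter box CACCC and to a loose form of the TATA box, ATAAA. The first GATA word, AGATAA, stands in 11.2% of all 32851 RefSeq promoter windows of 300 bases, the second, AGATAG, in 8.95%, the third, TGATAA, in 9.05% and the last, TGATAG, in 7.29%.
Hbb-y: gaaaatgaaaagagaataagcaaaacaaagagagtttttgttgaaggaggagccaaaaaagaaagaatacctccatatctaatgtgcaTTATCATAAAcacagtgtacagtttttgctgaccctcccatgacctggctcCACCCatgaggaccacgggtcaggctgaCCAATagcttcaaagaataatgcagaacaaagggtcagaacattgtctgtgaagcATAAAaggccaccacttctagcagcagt
Hbb-bs: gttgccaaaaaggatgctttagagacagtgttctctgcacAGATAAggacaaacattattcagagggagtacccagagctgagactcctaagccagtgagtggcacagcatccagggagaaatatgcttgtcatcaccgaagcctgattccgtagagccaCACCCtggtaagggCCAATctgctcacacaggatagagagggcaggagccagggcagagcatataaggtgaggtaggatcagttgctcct
Hbb-bt: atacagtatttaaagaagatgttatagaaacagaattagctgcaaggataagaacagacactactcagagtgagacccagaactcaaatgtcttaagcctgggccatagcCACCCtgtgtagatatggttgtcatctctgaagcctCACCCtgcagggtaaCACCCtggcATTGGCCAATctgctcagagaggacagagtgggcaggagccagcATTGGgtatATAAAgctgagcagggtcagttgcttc

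The 6 peaks fell outside the globin genes and on both sides of the cluster. Counted upstream from the Hbb-y start, 3 of them lay at 6.08, 17.6 and 24.1 kb, in the stretch that holds the locus control region, and 2 at 57.1 and 60.0 kb, among olfactory receptor genes. The remaining peak lay at the other, adult end, 3.36 kb beyond Hbb-bt. None had its midpoint in the body of a protein-coding gene, and none lay in the 40.7 kb between the outer ends of Hbb-bt and Hbb-y. Since no threshold is known for the calls, the absence of a peak there is only the absence of a call.

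**Figure D1:**
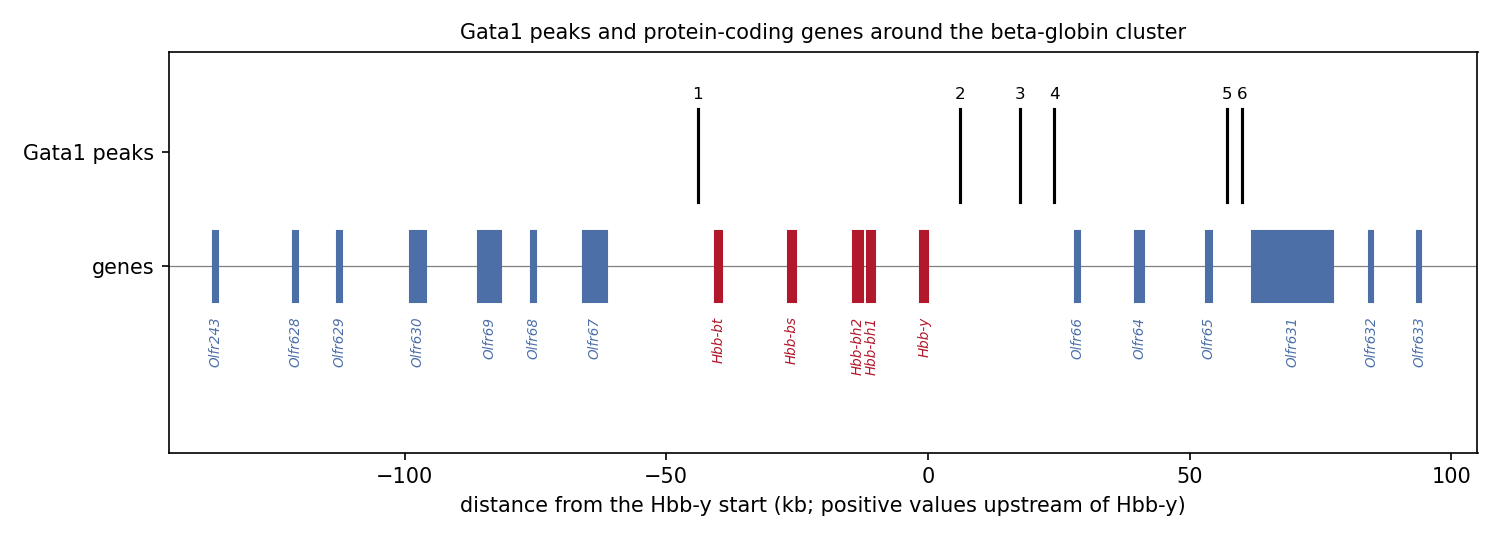
Protein-coding genes (boxes; beta-type globin genes red, olfactory receptor genes blue) and the 6 Gata1 peaks (numbered lines, in order of rising coordinate) by distance in kb from the Hbb-y start, with positive values upstream. Peaks 2 to 4 stand between Hbb-y and Olfr66, peaks 5 and 6 between Olfr65 and Olfr631, and peak 1 beside Hbb-bt, with no peak over the globin genes themselves.

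The stretch between Hbb-y and Olfr66, the next gene upstream, is 28.1 kb long and carried 3 peaks. Their positions were chr7:103859084-103859483, chr7:103870633-103871032 and chr7:103877099-103877498. The first was nearest to Hbb-y, at 6.08 kb upstream of its start. The second stood 11.5 kb beyond the first, 17.6 kb from Hbb-y and 10.5 kb from Olfr66. The third stood a further 6.47 kb out and was nearer to the olfactory receptor gene, at 4.01 kb from Olfr66 against 24.1 kb from Hbb-y. Distance alone would therefore have given 2 of the 3 peaks to Olfr66. The gene table used here marks no hypersensitive sites, so the peaks are placed in the stretch that holds the locus control region and are not matched to single sites of it.

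As many as 3 peaks in 1 gap between neighbouring protein-coding genes were rare in the whole list. Of 19378 such gaps on the autosomes and the X, 65 held 3 or more, which is 0.335%. Among the 3124 gaps of 20 to 40 kb, the length class of this one, 4 did so, or 0.128%. The peak density of the stretch was 107 per Mb (exact 95% interval from the Poisson distribution 22.0 to 312, for counting error only), against 1.61 per Mb over the autosomes and the X and 1.79 per Mb over chromosome 7. No test was made of these differences, since there was 1 library and peaks close to each other may not be independent calls.

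The peak at the adult end lay at chr7:103808961-103809360. It was 3.36 kb from the lower-coordinate end of Hbb-bt, its downstream end, and 4.76 kb from the Hbb-bt start. On the other side, the nearest gene was Olfr67, whose start lay 17.3 kb away. The peak was 50.1 kb from the next one, the nearest of the 3 upstream of Hbb-y, so the whole globin cluster lay between these 2 calls.

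The pair at 57.1 and 60.0 kb lay at chr7:103910068-103910467 and chr7:103912959-103913358. Both were in the 7.61 kb gap between Olfr65 and Olfr631, which run in the same direction. The first was 2.82 kb past the end of Olfr65, and the second was 1.90 kb before the start of Olfr631. They were 2.89 kb apart, the closest 2 peaks of the region. Over the 4133 peaks on the nuclear chromosomes, 6.77% had another peak as near as that, and the median distance to the nearest other peak was 67.8 kb. From positions alone, separate sites cannot be told from 1 broad region called more than once.

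Each globin gene was then described by its distance to the nearest peak midpoint. Hbb-y was 6.08 kb from a peak on its upstream side, and its nearest peak on the other side was 42.6 kb away. Hbb-bh1, the other embryonic gene, was 16.1 kb from that same upstream peak and 32.5 kb from the peak beyond Hbb-bt. Hbb-bh2 had the same neighbours, at 18.5 and 29.6 kb. For the adult genes the nearer peak was the one at the adult end. Hbb-bs was 17.4 kb from it and 31.4 kb from the first upstream peak. Hbb-bt was 3.36 kb from it and 45.4 kb from the upstream one. The 3 genes nearer to the locus control region therefore had their nearest peak there, and the 2 adult genes had theirs at the opposite end. With no call between the first upstream peak and the one beyond Hbb-bt, this split follows from the positions of the genes alone.

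With a window of the gene body plus 10 kb on each side, 2 of the 5 genes had one, Hbb-y and Hbb-bt. That is 40.0% (95% Wilson interval 11.8 to 76.9%), against 16.5% of all 21779 protein-coding genes. The number follows from the window. None of the 5 had a peak within 1 kb (11.3% of all coding genes did), 1 had one within 5 kb (13.9%), and all 5 had one within 20 kb (21.3%) and within 50 kb (32.0%). The windows of neighbouring genes overlap and the genes share their peaks: 2 peaks served as the nearest one for all 5 genes. The median distance to the nearest peak was 16.1 kb over the 5 genes and 135 kb over all protein-coding genes. At their own distances, Hbb-bt was matched or bettered by 12.8% of all protein-coding genes, Hbb-y by 14.5%, Hbb-bh1 by 19.5%, Hbb-bs by 20.1% and Hbb-bh2 by 20.7%.

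**Figure D2:**
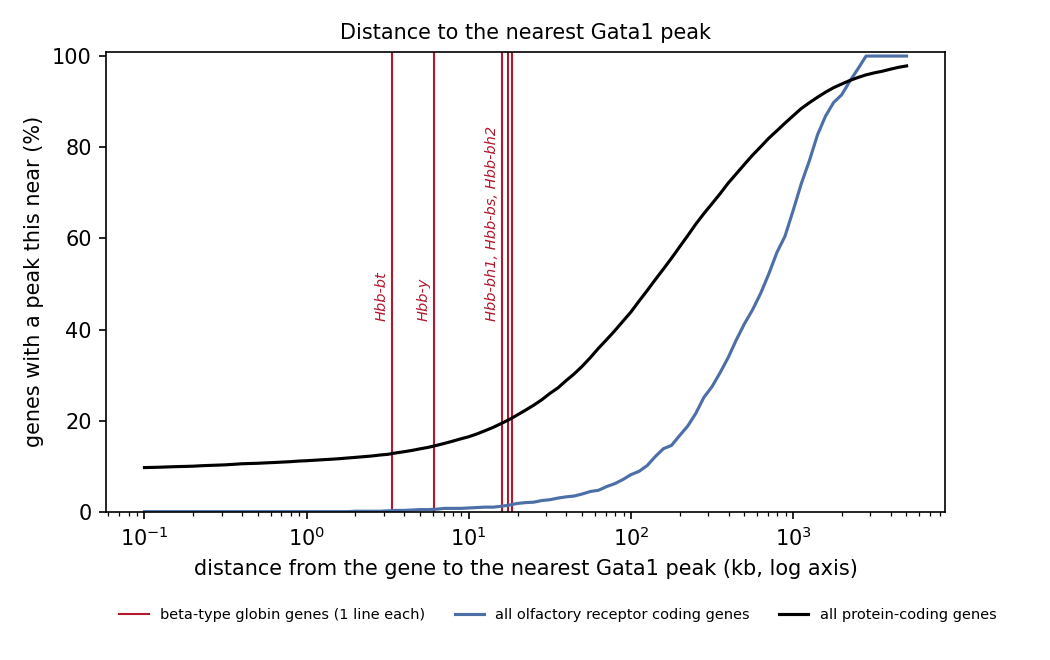
Share of genes (vertical axis, %) that have a Gata1 peak within a given distance (horizontal axis, kb, log scale), for all olfactory receptor coding genes (blue) and all protein-coding genes (black), with 1 red line at the distance of each beta-type globin gene. The red lines run between 3.36 and 18.5 kb, where the black curve stands at 12.8 to 20.7%.

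At the promoters, none of the 4 beta-type genes with a RefSeq promoter entry (Hbb-bt, Hbb-bs, Hbb-bh2 and Hbb-y) had a peak over the window of 300 bases around its start, which reaches from 250 bases before it to 50 bases after. Among the promoter windows of all protein-coding genes, 2.13% were overlapped by a peak. The start of Hbb-y was 6.08 kb from the nearest peak, that of Hbb-bt 4.76 kb, and those of Hbb-bs and Hbb-bh2 18.8 kb each.

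GATA words, the letters that Gata1 is known to bind, were found in 3 of these 4 promoters without a peak. In the sequences printed above, Hbb-y holds the word TGATAA on the opposite strand at 162 to 157 bases before its start, where it runs into a match to ATAAA. Hbb-bs holds AGATAA at 210 to 205 bases before its start. Hbb-bh2, not printed because its stretch reaches into the gene's longest annotated extent, holds AGATAA at 167 to 162 bases before its start. Hbb-bt holds none of the 4 words in this window, but its printed sequence reads ggataa, which differs from AGATAA in the first letter only. Its lack of a match therefore depends on the words chosen. Near matches of this kind were not counted over all windows. A GATA word stood in 29.8% of all 32851 promoter windows and in 5 of the 11 olfactory receptor promoters of the region that have an entry. A match is only a stretch of letters, and no match says nothing of the factor.

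Of the other boxes known from globin promoters, CCAAT stood at near positions in the embryonic Hbb-y and both adult genes. This box, bound by general factors, lay in Hbb-y at 83 to 79 bases before the start, in Hbb-bs at 76 to 72 and in Hbb-bt at 75 to 71, and 37.4% of all windows hold it. Hbb-bt held 2 further matches to it on the opposite strand, the first directly beside the forward one. CACCC, the core of the box bound by the red cell factor Klf1, was added to the search after the sequences were seen; it occurred in those same 3 promoters, 3 times in Hbb-bt and 1 time each in Hbb-y and Hbb-bs, and in 57.5% of all windows. The longer CCACACCC was found in Hbb-bs only, at 93 to 86 bases before its start, and in 3.56% of all windows. Hbb-bh2 held none of these 3 boxes. A match to ATAAA lay 28 to 24 bases before the Hbb-y start and 27 to 23 before the Hbb-bt start, and 40.0% of all windows hold it anywhere. Hbb-bs held no ATAAA match, but at about that place its printed sequence reads ataag, which differs from the word in the last letter only. This near match was not counted over all windows either. Farther from the start, Hbb-y held another match at 157 to 153 bases before it. Hbb-bh2 held 2 matches, 1 at 165 to 161 bases before its start and 1 past the start. The longer TATAAA was found in Hbb-bt only, as part of its ATAAA match, and in 13.6% of all windows.

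The adult promoters were the most alike of the 6 pairs when gaps counted as unlike. Over the 250 bases, Hbb-bt and Hbb-bs had the same base in 70.9% of alignment columns, gap columns included (185 of 261). The other 5 pairs had between 45.4% (Hbb-bs with Hbb-bh2, 144 of 317) and 54.4% (Hbb-bt with Hbb-y, 155 of 285). The order of the pairs over columns without gaps was not examined. Short reads could map to both adult genes only from stretches that are nearly the same in both. The 70.9% covers the promoters alone, and likeness of the gene bodies was not measured. Whether any reads map to both adult genes was not tested. How the submitters treated reads with several matches is not given in the sources used here, and any effect on calls in the cluster was not tested.

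The olfactory receptor genes around the cluster were described in the same way. The region held 13 of them that are protein-coding, 7 below the cluster and 6 above it. Of the 13, 3 had a peak within 10 kb, 23.1% (95% Wilson interval 8.18 to 50.3%), against 0.902% of all 1109 olfactory receptor coding genes. Outside the region 7 of 1096 did, or 0.639% (0.310 to 1.31%). Both intervals treat the genes as independent, although some neighbouring genes share the same peaks, so they understate the uncertainty. The 3 genes were Olfr66 with 1 peak and Olfr65 and Olfr631 with the same 2 peaks, and all lay on the side of the locus control region. On the adult side, Olfr67 came nearest, at 17.3 kb from the peak beyond Hbb-bt, and Olfr68 and Olfr69 followed at 30.8 and 37.6 kb. None of the 13 had a peak within 1 kb (0.0902% of all olfactory receptor coding genes did), and 9 had one within 50 kb (3.97%).

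Peaks near olfactory receptor genes were few in the whole list. In all, 8 distinct peaks of the whole list lay within 10 kb of an olfactory receptor coding gene, of which 3 were in the beta-globin region and 5 elsewhere. Of the 7 genes elsewhere, Olfr574, Olfr575 and Olfr576 also lie on chromosome 7 and share 1 peak, the next one below the region. The others, Olfr1416, Olfr323, Olfr288 and Olfr281, are on chromosomes 1, 11 and 15. These 7 were named after their values were seen.

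The cluster stood alone in a long stretch without other calls. Below the region, the next peak was 850 kb from the one at Hbb-bt, across 47 protein-coding genes of which 45 are olfactory receptor genes. Above it, the next peak was 5202 kb from the one before Olfr631, across 167 protein-coding genes of which 117 are olfactory receptor genes. Of 4069 distances between neighbouring peaks on the autosomes, 60 (1.47%) were as long as the upper one and 693 (17.0%) as long as the lower one. Moving the edge of the region from 100 to 200 kb added no peak, and drawing it at 50 kb left out the 2 peaks between Olfr65 and Olfr631. The outermost peak inside the rule thus lay 60.0 kb above Hbb-y.

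Over the whole region there were 24.9 peaks per Mb (exact 95% interval 9.15 to 54.3, from the Poisson distribution), against 1.61 per Mb over the autosomes and the X. With flanks of 200 kb in place of 100 kb the value was 13.6 per Mb, since the wider region held the same 6 peaks. When these chromosomes were divided into 10673 stretches of the same length, 8108 (76.0%) held no peak, the mean was 0.387 and 17 (0.159%) held 6 or more. Among the 108 stretches with at least 5 olfactory receptor coding genes, 99 held no peak and 2 held at least 2. The highest of these, with 5 peaks, was the one that takes in Hbb-y and the stretch upstream of it. The division cut the region, with the peak beyond Hbb-bt outside that stretch, so the region is not among the 17. Stretches with exactly 5 peaks numbered 26, this one among them.

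**Figure D3:**
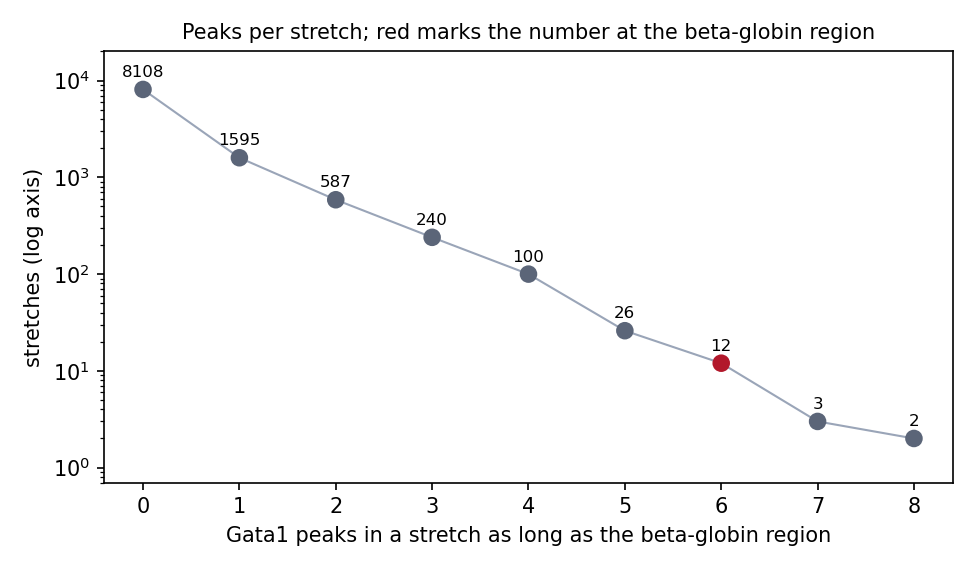
Number of stretches (vertical axis, log scale) by their number of Gata1 peaks (horizontal axis), for the autosomes and the X divided into stretches of 240.7 kb, with the count printed above each point. The red point marks 6 peaks, the number at the beta-globin region, which 12 stretches held, and 5 stretches held more. The region itself was cut by this division and is not among the 12.

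The alpha-globin cluster on chromosome 11 is the closest comparison, since its genes are also ordered from embryonic to adult behind a distant enhancer region, part of it within the introns of Nprl3. By the same rule both clusters held 6 peaks. The density was 24.9 per Mb at the beta cluster (13.6 per Mb with flanks of 200 kb), against 26.8 per Mb (9.82 to 58.2) over the 224.3 kb at the alpha cluster. In neither cluster did a peak midpoint lie between the outer ends of the globin genes. The peaks stood in different places. At the beta cluster 0 of 6 peaks lay in the body of a coding gene, and at the alpha cluster 4 of 6 did, 3 of them in Nprl3. The other was in Il9r, 76.3 kb upstream of Hba-x and 0.02 kb from the Il9r start. The share of all peaks that lie in a coding gene body is not given here, so neither count can be called unusual. The nearest upstream peak was 6.08 kb before Hbb-y, and 0.177 kb before Hba-x, the embryonic alpha-type gene, where it overlapped the promoter window. The beta cluster had a peak 3.36 kb beyond its last adult gene, and past the alpha cluster the next peak was 266 kb beyond Hbq1a. The median distance to the nearest peak was 16.1 kb over the 5 beta-type genes and 10.5 kb over the 5 alpha-type genes. These counts come from 1 library and were not tested.

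**Figure D4:**
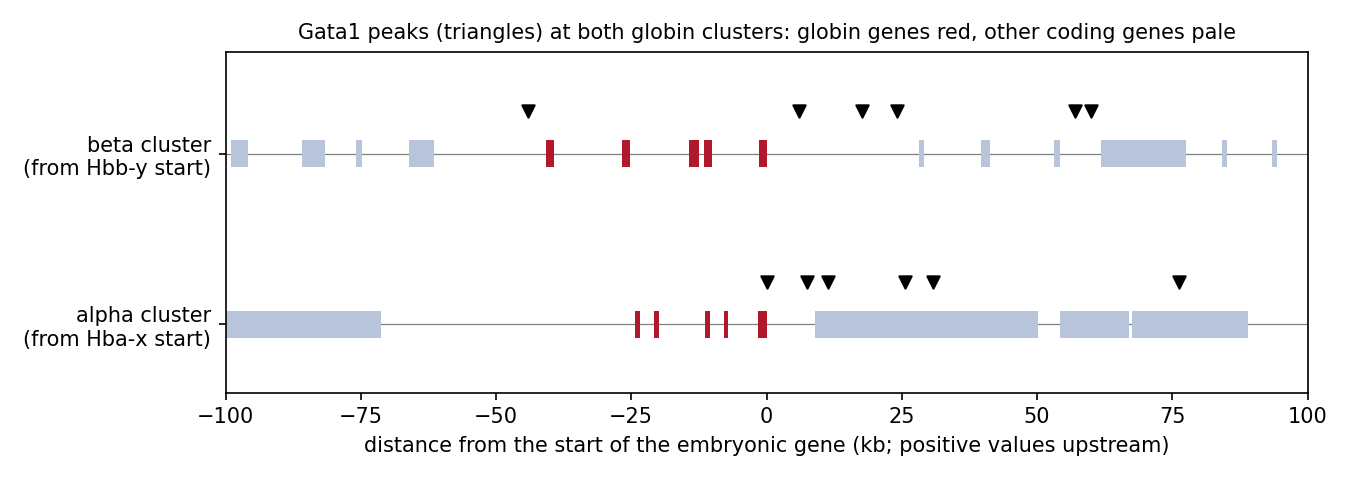
Gata1 peaks (triangles) and coding genes (boxes; globin genes red, others pale) at the beta-globin cluster (upper row) and the alpha-globin cluster (lower row), by distance in kb upstream of Hbb-y or Hba-x. The beta row has its first upstream peak at 6.08 kb and a peak beyond the adult end, and the alpha row starts at 0.177 kb and has none on the adult side.

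Genes for factors that act on the beta-globin cluster or are linked to its switching were listed as well, from the proteins that bind the locus control region or link it to a promoter to those that silence the embryonic genes. Of 26 such genes, 15 had a Gata1 peak in the gene body or its flanks of 10 kb, 57.7% (95% Wilson interval 38.9 to 74.5%), against 16.5% of all protein-coding genes, and 11 of the 26 had one inside the gene, against 9.34%. The list was chosen with earlier results of these data known, and the shares were not adjusted for gene length. They therefore describe the listed genes and are no evidence of enrichment. Among the Gata1 complex that occupies the locus control region, peaks lay in Gata1 itself (2), in Tal1 (1), in Lyl1 (2), a close relative of Tal1, in Ldb1 (1), which encodes the protein that holds enhancer and promoter together, and beside Tcf3 (1). Zfpm1, encoding the Gata1 cofactor FOG-1, had 8, and Cbfa2t3, encoding a corepressor of the complex, had 3. Lmo2, which bridges Tal1 and Ldb1, had none, its nearest being 64.0 kb away.

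Of the other factors that act on the locus, Klf1, the activator of the adult genes, had 1 peak at 0.704 kb from the gene. Nfe2, whose product binds the locus control region with small Maf proteins, had 2, and its partner Mafk had 1 at 1.73 kb, while Mafg had none within 10 kb. Ctcf, encoding the insulator protein that binds both ends of the beta-globin domain, had 1 in the gene, and Ssbp3, encoding a partner of Ldb1, also had 1. Of the silencers of embryonic or fetal globin genes, Sox6 had 2 peaks in the gene, Zbtb7a had 2 and Nr2c2 had 1 at 7.74 kb. Bcl11a had none, its nearest peak being 907 kb away. Nr2c1 (nearest peak at 369 kb), Kdm1a (240 kb) and Myb (35.8 kb) had none within 10 kb either. The same was true of Nfe2l1 (87.7 kb), Bach1 (1798 kb), Smarca4 (22.1 kb), Hbs1l (27.0 kb) and Klf3 (88.6 kb).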

How the data were processed

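Bowtie2 2.0.6 and MACS2 2.0.10 were used on mm10, per the submitters' processing notes; for settings, threshold, use of the control and reads with several matches, nothing is given in the sources used here. The authors deposited 3 columns (chromosome, start, end) with no score, and every interval was 400 bp wide. Positions are printed 1-based. Gene positions and 32851 promoter windows came from RefSeq tables of GRCm38.p6; autosomal and X entries placed below 3 Mb, which are positions on scaffolds, were dropped, among them Hbb-b1 and Hbb-b2, the adult genes of other strains. That left 21779 protein-coding genes on nuclear chromosomes. A peak was placed by its midpoint. Promoters were aligned globally (match 1, mismatch -1, gap opening -2, extension -0.5). Python 3.11.15, pandas 2.3.3, scipy 1.17.1 and biopython 1.88 were used, and the counting was tested on simulated peaks.

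Named were all members, the alpha-type genes, the genes beside each peak, the nearest or peak-bearing olfactory receptor genes and the regulator list. The members and lists were chosen with earlier results of these data known. With 1 library no test was made, and intervals cover counting error only. Alternatives were the flank, the gene window, any overlap, peaks within 1 kb counted once and, added after seeing the data, the bounding gene Olfr64, distances from starts, shifted stretches and CACCC.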

Additional observations from a re-analysis of the deposited data

How the results depend on the processing

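The number of beta-type genes with a peak moved with the window, from 2 at 10 kb to 0 at 1 kb, 1 at 5 kb, 5 at 20 kb and 5 at 50 kb. The olfactory receptor genes of the region with a peak moved likewise, from 3 at 10 kb to 0 at 1 kb and 9 at 50 kb; larger windows hold more by construction. The region held 4 peaks with flanks of 50 kb and 6 with 200 kb, so the density was 28.4 and 13.6 per Mb. The second is over 1.5 times lower than the main value of 24.9 per Mb. These values count the same peaks over other lengths, so the Poisson interval of the main value does not measure this dependence on the flank. The 3 peaks between Hbb-y and Olfr66 stayed 3 when whole intervals had to lie inside, when peaks within 1 kb were counted once and when Olfr64 was the bound. The regulator genes with a peak numbered 13 at 1 kb, 18 at 50 kb and 15 by any overlap. With the stretches started at another offset, 15 of 10662 (0.141%) held 6 or more peaks, and here 1 stretch held all 6 peaks of the region. Olfr64 as the bound, the distance from starts (3 olfactory receptor genes) and the shifted stretches were chosen after seeing the data. A stricter peak threshold was not run, since the list has no score. No paired analysis was possible because there is 1 ChIP library and no test. Depth could not be examined, so a site without a peak is only one with no call.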
